A study of Mus musculus with 16 samples.

Results

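The 8 genes described here encode proteins of the tight and adherens junctions that tie epithelial cells together: Cldn19, Ocln and F11r (tight junction membrane proteins), Tjp1 and Cgn (their scaffolds), and the cadherins Cdh1, Cdh2 and Cdh3. They were taken by name from the 51912 genes of a deposited mouse count table, through the Ensembl identifiers, and all 8 passed the filter on low counts, a mean count of at least 1 CPM (counts scaled to a library of 1e+06). They were read out in the retinal pigment epithelium (RPE), the pigmented layer behind the photoreceptors, in a study of the succinate receptor SUCNR1 and of oxidative damage by hydroquinone. No difference between groups passed the test in any of the 8. Within groups, F11r and Cdh1 rose from library to library with Krt12, the keratin of corneal epithelium, while Cdh3 fell with Krt12 and rose with the RPE markers. Of all genes tested, 14.2% passed the test for a slope on Krt12. None of these Krt12 slopes passed once the 2 libraries of highest Krt12 were left out. Krt12 and the RPE markers were themselves related (r = -0.72 over 13 mice), so the relations of Cdh3 to them are not separate results.

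The RPE forms the outer blood-retina barrier: its tight junctions seal the space between cells against the choroidal circulation, and its adherens junctions hold the sheet together. Claudins form the strands that set which ions pass, and claudin 19 is known as a main claudin of the RPE. Occludin (Ocln) and junctional adhesion molecule A (F11r) are further membrane proteins of the tight junction, and ZO-1 (Tjp1) and cingulin (Cgn) link them to the actin cytoskeleton. Cadherins bind their like on the next cell: E-cadherin (Cdh1) is general to epithelia and abundant in the cornea, P-cadherin (Cdh3) is a known cadherin of the RPE, and N-cadherin (Cdh2) is found in neurons and also in RPE.

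All libraries came from 40-week-old male C57BL/6 mice. The 4 groups were wild type untreated, wild type given hydroquinone, Sucnr1 knockout untreated and Sucnr1 knockout given hydroquinone, each with 4 libraries. Each library was made from 1 eye, after the anterior segment and the retina had been taken off and the RPE lifted from the choroid with forceps. The titles name 13 mice: 2 and 3 for the untreated wild-type and knockout groups and 4 for each hydroquinone group. Both eyes were used from 3 untreated mice. The protocol speaks of 4 animals in a group, and the titles were followed here. The dose, route and length of hydroquinone exposure and the design of the knockout allele are not given in the sources used here. Libraries are named below by group and a number that follows the order of accession.

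Library totals ran from 21113549 to 35332444 counts. Sucnr1 had 28 counts untreated and 1 with hydroquinone in wild type, and 3 and 1 in the knockout, too few to check the genotype labels. All 14 RPE markers were present in the libraries, with Rpe65 between 2148 and 4338 CPM, although Best1 reached only 0.985 to 3.33 CPM. Markers of other tissues were present too. The summed level of 10 corneal epithelium markers ranged in wild type from 3461 to 13024 CPM untreated and from 2923 to 27665 CPM with hydroquinone, and in knockout from 4842 to 9101 CPM and from 2497 to 9596 CPM. Of these, 9 had a mean of at least 1 CPM and Ly6d did not. Summed rod markers (11 genes) spanned 247.8 to 22398 CPM and summed oligodendrocyte markers (6 genes) 143.3 to 10062 CPM. In such bulk samples, fewer cells of a type and less RNA per cell cannot be told apart.

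Krt12 differed widely between libraries. It measured 3923, 536.2, 998.4 and 2233 CPM in untreated wild-type libraries 1 to 4, and 7607, 10318, 436.6 and 1804 CPM in the wild-type hydroquinone libraries. In knockout it measured 1902, 2581, 1441 and 1060 CPM untreated and 3130, 1431, 241.6 and 339.2 CPM with hydroquinone. Wild-type hydroquinone libraries 1 and 2 thus stood above all the others, and results that rest on them are given below without them as well. The basal keratin Krt5 was also present in every library, from 985.1 to 6680 CPM.

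The sequence upstream of 3 genes is shown because they stand for the 3 relations to Krt12 met below: F11r rose with it, Cgn had a slope near 0, and Cldn19 had a negative slope that did not pass. Sequences are from the RefSeq promoter table (GRCm38.p6), 5′ to 3′ on the gene's strand, and stop at the base before the gene's start in GENCODE vM21. Capitals mark motif matches, CACCTG in F11r and CACGTG in Cgn.
F11r, chr1:171437311-171437534, plus strand: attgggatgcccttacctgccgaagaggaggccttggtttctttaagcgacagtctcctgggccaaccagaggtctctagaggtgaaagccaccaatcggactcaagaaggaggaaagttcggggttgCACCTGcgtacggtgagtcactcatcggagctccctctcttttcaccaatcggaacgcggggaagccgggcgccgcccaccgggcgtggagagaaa
Cgn, chr3:94786493-94786732, minus strand: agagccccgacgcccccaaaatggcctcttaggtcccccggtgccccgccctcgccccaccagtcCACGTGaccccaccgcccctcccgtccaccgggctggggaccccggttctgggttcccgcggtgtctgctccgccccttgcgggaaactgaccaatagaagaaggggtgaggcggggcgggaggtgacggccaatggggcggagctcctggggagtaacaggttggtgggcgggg
Cldn19, chr4:119255191-119255413, plus strand: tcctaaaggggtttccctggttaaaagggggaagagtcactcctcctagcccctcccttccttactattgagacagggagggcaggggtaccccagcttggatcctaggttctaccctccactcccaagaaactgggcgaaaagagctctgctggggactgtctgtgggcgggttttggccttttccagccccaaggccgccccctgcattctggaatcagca

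In GENCODE vM21 the stretch of Cldn19 lies in an intron of the antisense gene Gm12927, and the stretch of F11r touches at its far end an exon of the noncoding gene Gm26641. The table held windows of 250 bases before to 50 bases after the start for 5 of the 8 genes (7 windows). The genes Cdh1, Cdh2 and Cdh3 had none. Searched on both strands, the E-box CACCTG was in 20.2% of the table's 32851 windows, the E-box CACGTG in 7.15%, and the homeodomain site TAATCC in 7.06%. These motifs do not overlap in the matches shown. F11r had 1 CACCTG match, starting 122 bases before the gene's RefSeq start, and Cgn had 1 CACGTG match, 185 bases before it. Neither the Cldn19 windows nor the Tjp1 window held any of the 3, and both Ocln windows held CACCTG on one strand or the other. These matches describe the letters of the windows and nothing more.

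Per kilobase of exon, which allows levels to be compared between genes, F11r was highest at 41.3 ± 16.7 CPM per kb, followed by Cdh3 at 35.6 ± 6.17 and Tjp1 at 20.9 ± 2.15 (SD, n = 16 libraries throughout). Cdh1 came next at 20.2 ± 7.0 CPM per kb, Cgn at 11.9 ± 1.99 and Ocln at 7.12 ± 1.24. Cldn19 averaged 4.93 ± 2.05 and Cdh2 4.14 ± 1.19 CPM per kb. Within 1 SD the neighbours F11r and Cdh3, Tjp1 and Cdh1, Cdh1 and Cgn, Ocln and Cldn19, and Cldn19 and Cdh2 overlapped. The spread between libraries split the genes: the coefficient of variation was 10.3% for Tjp1, 16.8% for Cgn, 17.3% for Cdh3 and 17.5% for Ocln, against 28.8% for Cdh2, 34.7% for Cdh1, 40.3% for F11r and 41.7% for Cldn19.

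**Figure D1:**
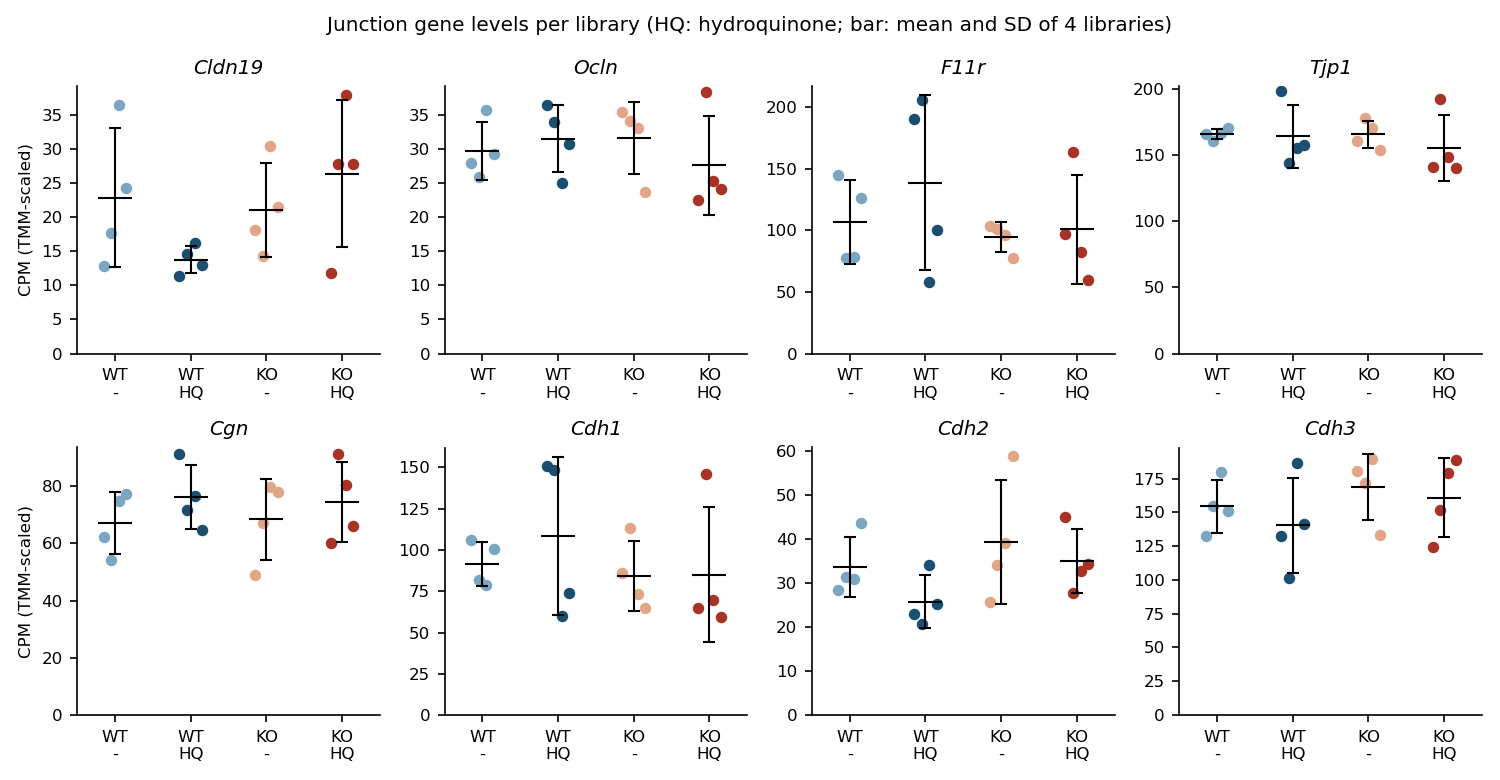
Level of each gene in every library (CPM with TMM-scaled library sizes, linear axis from 0) for the 4 groups, where points are libraries and bars are the mean and SD of 4. F11r and Cdh1 have 2 high points in wild type with hydroquinone and 1 in knockout with hydroquinone, whereas Tjp1 stays between 140.6 and 199 CPM.

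Among the tight junction membrane proteins, Cldn19 (ENSMUSG00000066058, chromosome 4, 119255414 to 119262438, plus strand, GRCm38) had the highest coefficient of variation, 41.7% against 40.3% for F11r. Its highest library exceeded its lowest 3.32-fold, less than the 3.53-fold of F11r. Cldn19 measured 12.9, 17.7, 36.4 and 24.3 CPM in untreated wild type and 11.4, 14.6, 16.2 and 13 CPM in wild type with hydroquinone. In knockout its levels were 18.1, 14.3, 30.4 and 21.5 CPM untreated and 11.8, 27.8, 37.9 and 27.7 CPM with hydroquinone. The 4 wild-type hydroquinone libraries were all low, but 1 library of each other group lay within their range, so no pair of groups was separate. Exons of Cldn19 overlap those of Gm12927 on the other strand; Gm12927 had at most 0.196 CPM, and strand use in counting is not stated.

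Under hydroquinone the mean Cldn19 level was 26.3 ± 10.8 CPM in knockout and 13.8 ± 2.04 CPM in wild type (SD, n = 4 libraries each). The fitted log2 difference was 0.93 (SE 0.35, 95% interval 0.19 to 1.68) with an unadjusted p of 0.0175 and an edgeR adjusted p of 1.00. It therefore did not pass, and 3 of the 4 knockout libraries lay above the wild-type range. Krt12 went the other way, with a mean of 1285 CPM in the knockout and 5042 CPM in the wild-type hydroquinone libraries. Its ranges, 241.6 to 3130 CPM and 436.6 to 10318 CPM, overlapped. Cldn19 did not pass this comparison with Krt12 as a covariate either. The part of Krt12 in the size of the Cldn19 difference was not worked out. The difference between the hydroquinone effects of the genotypes (interaction) was 1.05 on the log2 scale for Cldn19 (SE 0.49, 95% interval -0.001 to 2.09, edgeR adjusted p = 1).

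Ocln (ENSMUSG00000021638, chromosome 13, 100496507 to 100552718, minus strand) measured 28.0, 25.8, 35.7 and 29.3 CPM in untreated wild type and 36.5, 33.9, 25.03 and 30.6 CPM in wild type with hydroquinone. Its knockout levels were 35.5, 34.0, 33.1 and 23.7 CPM untreated and 22.4, 38.3, 25.3 and 24.2 CPM with hydroquinone. The groups overlapped throughout, and the fitted hydroquinone effect averaged over genotype was -0.06 on the log2 scale (95% interval -0.33 to 0.22).

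F11r (ENSMUSG00000038235, chromosome 1, 171437535 to 171464603, plus strand) spanned 3.53-fold. Its levels were 145, 77.4, 78.7 and 125.9 CPM in untreated wild type and 190, 205.5, 58.2 and 100.5 CPM in wild type with hydroquinone. In knockout they were 103.8, 100.8, 96.1 and 77.2 CPM untreated and 97.1, 163.3, 82.5 and 59.7 CPM with hydroquinone. The 2 highest F11r libraries were the 2 highest in Krt12, and the 2 lowest, at 58.2 and 59.7 CPM, had Krt12 at 436.6 and 339.2 CPM. Knockout hydroquinone library 2 departed from this order, with the third-highest F11r level but a middling Krt12 of 1431 CPM; its Krt5 was 3779 CPM, also the third-highest.

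The scaffold gene Tjp1 (ENSMUSG00000030516, chromosome 7, 65296165 to 65527781, minus strand) was the steadiest of the 8. It read 166.1, 160.9, 166.5 and 170.8 CPM in untreated wild type and 199, 144.4, 155.8 and 157.7 CPM in wild type with hydroquinone. The knockout libraries read 160.6, 178, 170.4 and 154.3 CPM untreated and 141, 192.3, 148.5 and 140.6 CPM with hydroquinone. Its highest library exceeded its lowest 1.42-fold, and the fitted hydroquinone effect averaged over genotype was -0.05 on the log2 scale (SE 0.08, 95% interval -0.23 to 0.12).

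Cgn (ENSMUSG00000068876, chromosome 3, 94760069 to 94786492, minus strand) ranged from 48.9 CPM in untreated knockout library 1 to 91.4 CPM in knockout hydroquinone library 2. Wild-type libraries held 62.3, 54.4, 74.8 and 77.3 CPM untreated and 91.3, 71.9, 76.5 and 64.8 CPM with hydroquinone. Knockout libraries held 48.9, 67.1, 79.9 and 77.8 CPM untreated and 60.1, 91.4, 80.3 and 66.0 CPM with hydroquinone. High and low values occurred in every group, and the knockout effect averaged over treatment was -0.002 on the log2 scale (95% interval -0.27 to 0.26).

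The cadherins behaved differently from each other. Cdh1 (ENSMUSG00000000303, chromosome 8, 106603351 to 106670246, plus strand) measured 105.8, 81.7, 78.7 and 100.3 CPM in untreated wild type and 150.8, 148.7, 60.3 and 73.8 CPM in wild type with hydroquinone. In knockout it measured 85.9, 113.4, 73.1 and 65.0 CPM untreated and 64.8, 146.3, 70.0 and 59.1 CPM with hydroquinone. Its 3 highest libraries were the same 3 as for F11r, and the levels of Cdh1 and F11r correlated at r = 0.91 over the 16 libraries, the highest value among the 28 pairs of the 8 genes.

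Cdh3 (ENSMUSG00000061048, chromosome 8, 106510891 to 106557297, plus strand), the neighbour of Cdh1 on the chromosome, ran the other way. It read 132.4, 155, 180 and 150.7 CPM in untreated wild type and 132.7, 101.1, 186.6 and 141.8 CPM in wild type with hydroquinone. In knockout it read 180.4, 171.5, 189.7 and 133.4 CPM untreated and 124.3, 151.5, 179.2 and 188.7 CPM with hydroquinone. The lowest level was in the library of highest Krt12. Over the 16 libraries, Cdh3 correlated with Cdh1 at r = -0.49 and with F11r at r = -0.68.

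Cdh2 (ENSMUSG00000024304, chromosome 18, 16588877 to 16809246, minus strand) held 28.4, 31.4, 30.8 and 43.6 CPM in untreated wild type and 23.0, 20.6, 34.2 and 25.3 CPM in wild type with hydroquinone. The knockout libraries held 25.7, 34.0, 39.0 and 58.8 CPM untreated and 45.0, 27.7, 32.6 and 34.3 CPM with hydroquinone. Its 2 highest values were in untreated knockout library 4 and knockout hydroquinone library 1, the 2 libraries with the highest rod marker score. Over 13 mice, Cdh2 and the rod score correlated at r = 0.40 (permutation p = 0.17, adjusted 0.33) and rho = 0.18 (permutation p = 0.55, adjusted 0.73), which did not pass. The value of r was 0.54 without the 2 mice farthest from the median rod score. Over the 16 libraries r was 0.48, and 0.70 after the group means were taken off, both without a test.

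The E-cadherin to P-cadherin ratio, taken per kilobase of exon, was above 1 in wild-type hydroquinone libraries 1 (1.09) and 2 (1.41) and below 1 in the other 14. Its lowest values were 0.300 in knockout hydroquinone library 4 and 0.310 in wild-type hydroquinone library 3, both low in Krt12. Knockout hydroquinone library 2 had the third-highest ratio, 0.926. Wild type with hydroquinone held both the highest ratio and the next to lowest one.

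**Figure D2:**
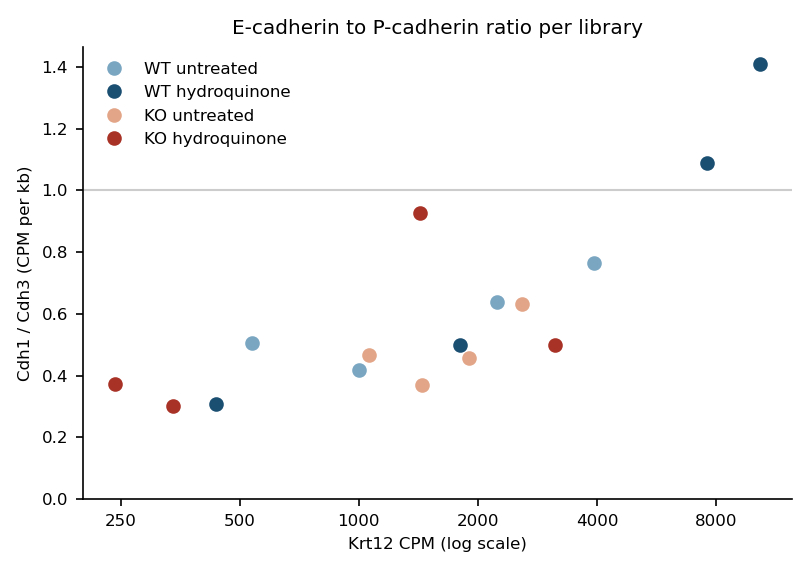
Ratio of Cdh1 to Cdh3 (both in CPM per kilobase of exon, linear axis from 0) against Krt12 (CPM, log axis) for 16 libraries coloured by group; the grey line marks a ratio of 1. The 2 libraries above the line, at 1.09 and 1.41, have 7607 and 10318 CPM of Krt12.

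To ask which genes moved with the corneal content of a library, each gene was fitted with a slope on log2 Krt12 beside the 4 group means, so that libraries were compared only inside their group. Of all genes tested, 14.2% passed an edgeR adjusted p of 0.05 (8.10% with a positive and 6.15% with a negative slope), which is the background for the members. Of the 8, 3 passed. F11r had a slope of 0.34 (SE 0.06, adjusted p = 0.0026), or a 1.27-fold higher level for each doubling of Krt12. Cdh1 rose with a slope of 0.25 (SE 0.07, adjusted p = 0.023), 1.19-fold per doubling. Cdh3 fell with a slope of -0.14 (SE 0.03, adjusted p = 0.019), 0.911-fold per doubling.

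The other 5 members did not pass. Cldn19 had a slope of -0.19 (SE 0.09, adjusted p = 0.16), Ocln 0.08 (SE 0.05, adjusted p = 0.31) and Cdh2 -0.06 (SE 0.06, adjusted p = 0.57). Tjp1, at 0.03 (95% interval -0.04 to 0.10), and Cgn, at 0.005 (95% interval -0.10 to 0.11), lay closest to 0. The positive slopes of F11r and Cdh1 and the negative slope of Cdh3 kept their sign in all 11 alternative settings and in all 16 fits that left out 1 library.

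The calls themselves rested on few libraries. Leaving out wild-type hydroquinone libraries 1 and 2 was a setting chosen after the data had been seen. Without wild-type hydroquinone libraries 1 and 2, the slopes were 0.29 for F11r (adjusted p = 0.12), 0.18 for Cdh1 (adjusted p = 0.37) and -0.12 for Cdh3 (adjusted p = 0.24), and the number of all genes called went from 2191 to 61. Without wild-type hydroquinone library 2 alone or library 3 alone, F11r passed while Cdh1 and Cdh3 did not. With Krt12, RPE and rod levels in 1 model, none of the 3 passed (0.23, 0.14 and -0.06). Krt12 and the RPE score are not independent, with r = -0.72 and rho = -0.62 over 13 mice. Cdh1 did not pass with the form of the library identifier (with or without a letter) as a covariate (0.22, adjusted p = 0.087) or with the eyes of a mouse summed (0.27, adjusted p = 0.053).

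With Krt5 in place of Krt12, an alternative chosen after the data had been seen, the slope was 0.68 for F11r (SE 0.05, edgeR adjusted p = 2.1e-06) and 0.56 for Cdh1 (SE 0.07, adjusted p = 7.6e-05). Cdh3 had -0.21 there (adjusted p = 0.067) and did not pass. The score of the corneal marker list gave 0.66 for F11r, 0.52 for Cdh1 and -0.22 for Cdh3, all 3 passing.

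**Figure D3:**
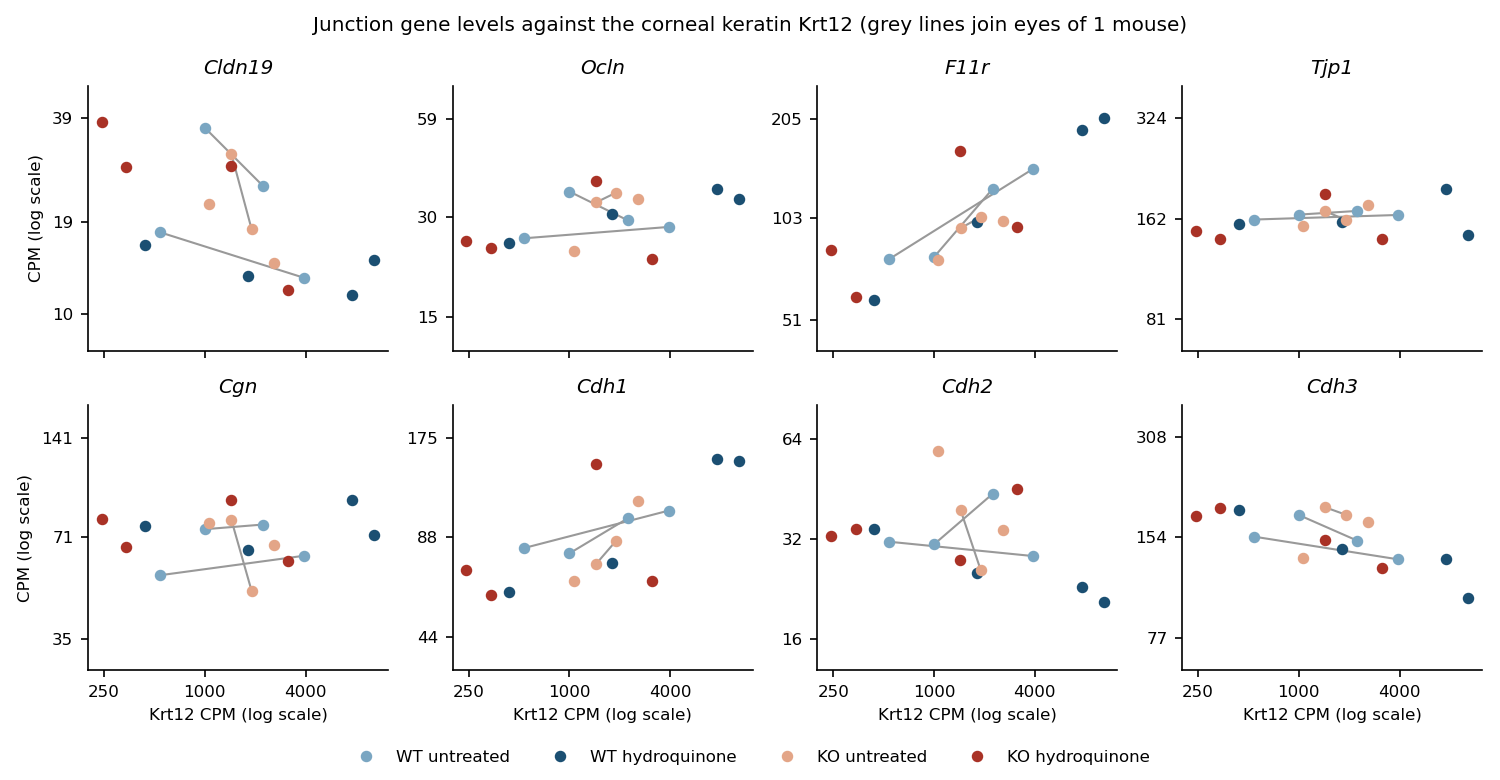
Level of each gene (CPM) against Krt12 (CPM) on log axes, 1 point per library coloured by group, with grey lines joining the eyes of 1 mouse; all panels span the same range of fold. F11r and Cdh1 climb from left to right, Cdh3 declines, and Tjp1 and Cgn stay level.

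The same fit on the RPE marker score (mean log2(CPM + 1) of the 14 markers) called 1990 of 15366 genes, 6.82% of them all with a positive and 6.13% with a negative slope. Of the 8, 1 passed: Cdh3 rose by 0.90 on the log2 scale per unit of the score (SE 0.17, edgeR adjusted p = 0.0067). It passed in all 16 fits without 1 library and in 8 of 9 alternatives, the exception being the model with Krt12, RPE and rod levels together (0.62, adjusted p = 0.88). Cldn19 had a slope of 1.15 (SE 0.49, adjusted p = 0.13) and did not pass. F11r, at -1.44 (SE 0.51, adjusted p = 0.075), and Cdh1, at -0.94 (SE 0.52, adjusted p = 0.24), had negative slopes that did not pass. Leaving out the 2 libraries of highest rod score was a setting chosen after the data had been seen. F11r and Cdh1 both passed in it, at -2.53 (adjusted p = 0.012) and -2.08 (adjusted p = 0.016). Ocln, Tjp1, Cgn and Cdh2 lay at 0.07, -0.04, -0.05 and -0.39 (adjusted p = 0.89, 0.90, 0.92 and 0.49).

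Set side by side, F11r and Cdh1 went with Krt12 and had negative slopes on the RPE markers that did not pass, Cdh3 went with the RPE markers and against Krt12, and Cldn19 had the signs of Cdh3 in both fits without passing either. Ocln, Tjp1, Cgn and Cdh2 passed in neither fit. The RPE itself is known to make several of these proteins, and the fits do not divide a gene's RNA between cell types.

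The eyes of 1 mouse share genotype, treatment and animal. They are part of the libraries behind the slopes above, so their single values illustrate those slopes and are no separate support. In the first untreated wild-type mouse Krt12 was 3923 CPM in one eye and 536.2 CPM in the other, and F11r was 145 and 77.4 CPM, Cdh1 105.8 and 81.7 CPM and Cdh3 132.4 and 155 CPM. In the second, Krt12 was 998.4 and 2233 CPM, and F11r was 78.7 and 125.9 CPM, Cdh1 78.7 and 100.3 CPM and Cdh3 180 and 150.7 CPM. In the knockout mouse the eyes differed less, with Krt12 at 1902 and 1441 CPM, F11r at 103.8 and 96.1 CPM, Cdh1 at 85.9 and 73.1 CPM and Cdh3 at 180.4 and 189.7 CPM. F11r and Cdh1 were higher in the eye with more Krt12 in 3 of 3 mice, and Cdh3 and Cldn19 were lower there in 3 of 3. Tjp1, Ocln and Cgn were higher there in 2 of 3 and Cdh2 in 1 of 3. This is a description of 3 mice with no test, and the share of all genes with a uniform sign was not counted. Cldn19 was 12.9 and 17.7, 36.4 and 24.3, and 18.1 and 30.4 CPM in these eyes.

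Over the 13 mice, with the eyes of a mouse averaged, 32 correlations between the 8 genes and 4 marker levels were computed on log2(CPM + 1), with 2-sided permutation p-values adjusted over the 32. F11r and Krt12 gave r = 0.83 (permutation p = 0.00064, adjusted 0.01) and rho = 0.71 (permutation p = 0.0088, adjusted 0.077). Cdh3 and Krt12 gave r = -0.77 (permutation p = 0.002, adjusted 0.021) and rho = -0.70 (permutation p = 0.0096, adjusted 0.077). For Cdh3 and the RPE score, r was 0.84 (permutation p = 0.00039, adjusted 0.01) and rho 0.85 (permutation p = 0.00049, adjusted 0.016), so this relation alone passed in both measures.

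Cdh1 and Krt12 gave r = 0.72 (permutation p = 0.0062, adjusted 0.05) and rho = 0.62 (permutation p = 0.03, adjusted 0.16). Cldn19 and Krt12 gave r = -0.68 (permutation p = 0.01, adjusted 0.066) and rho = -0.76 (permutation p = 0.0039, adjusted 0.062), which did not pass. Leaving out the 2 mice farthest from the median of the marker level, r was 0.82 for F11r, -0.64 for Cdh3 and 0.65 for Cdh1 with Krt12, and 0.82 for Cdh3 with the RPE score. Within libraries whose identifier lacks a letter (9) and those with one (7), r with Krt12 was 0.85 and 0.78 for F11r, -0.84 and -0.51 for Cdh3 and 0.67 and 0.56 for Cdh1. For Cdh3 with the RPE score it was 0.90 and 0.74.

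The wider junction lists held 64 genes (24 claudins, 24 other tight junction genes and 16 adherens junction genes, the 8 members included), of which 53 were tested. On the Krt12 slope 18 of 53 passed, 12 positive and 6 negative, beside 14.2% of all genes. The median slope of the 53 was 0.007, against 0.001 over all genes tested. By list, 5 claudins of 13 tested had a positive slope that passed and 3 a negative one, among the other tight junction genes 4 of 24 and 1 of 24, and among the adherens junction genes 3 of 16 and 2 of 16.

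Cldn11, the claudin of myelin, had the largest positive slope, 1.00 (SE 0.29, edgeR adjusted p = 0.038). It spanned 1.31 to 177.7 CPM, and the oligodendrocyte marker Mog was highest, at 94.2 CPM, in the same library as Cldn11. The library of highest Krt12, wild-type hydroquinone library 2, held only 2.415 CPM of Cldn11 and 0.2875 CPM of Mog. Cldn7 (0.43, SE 0.11, adjusted p = 0.019), Cldn4 (0.42, SE 0.10, adjusted p = 0.015) and Tjp3 (0.39, SE 0.08, adjusted p = 0.0076) came next; all 3 are genes of epithelial tight junctions. Cldn4, for example, measured 162.8 and 207.9 CPM in wild-type hydroquinone libraries 1 and 2 and 37.0 CPM in library 3 of that group.

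In the negative direction the largest slopes were those of the adhesion molecule gene Nectin3 (-0.25, SE 0.06, adjusted p = 0.015), the claudins Cldn2 (-0.21, SE 0.04, adjusted p = 0.0045) and Cldn1 (-0.18, SE 0.05, adjusted p = 0.027), and Amot (-0.15, SE 0.05, adjusted p = 0.035), which encodes the scaffold angiomotin. The counts of this list shared the dependence on few libraries: the number passing was 0 without wild-type hydroquinone libraries 1 and 2, 5 without library 2 alone and 2 without library 3 alone. Over all genes, the number passing went from 2191 to 61, 867 and 235 in the same settings, so the drop was not particular to junction genes.

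On the RPE score 9 of 53 passed, 6 positive and 3 negative, beside 6.82% and 6.13% of all genes, and the median slope of the 53 was -0.04 against -0.07 over all genes tested. The largest positive slopes were those of Cldn1 (1.21, SE 0.22, edgeR adjusted p = 0.0050), Cldn2 (1.09, SE 0.27, adjusted p = 0.022), the cingulin-like gene Cgnl1 (0.95, SE 0.29, adjusted p = 0.043) and Amot (0.91, SE 0.27, adjusted p = 0.040). Cdh3 came after them at 0.90. The most negative passing slopes were those of Marveld3 (-2.05, SE 0.61, adjusted p = 0.041) and Ybx3 (-1.64, SE 0.19, adjusted p = 0.0018).
Cldn1, Cldn2 and Amot thus passed in both fits, with a negative slope on Krt12 and a positive one on the RPE score, as Cdh3 did. Marveld3 and Ybx3 passed in both with the reverse signs, at 0.36 and 0.22 on Krt12 (adjusted p = 0.032 and 0.018). Cldn1 was highest, at 429.6 CPM, in wild-type hydroquinone library 3, where Krt12 was 436.6 CPM, and lowest, at 199.3 CPM, in library 2 of that group, where Krt12 was 10318 CPM.

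**Figure D4:**
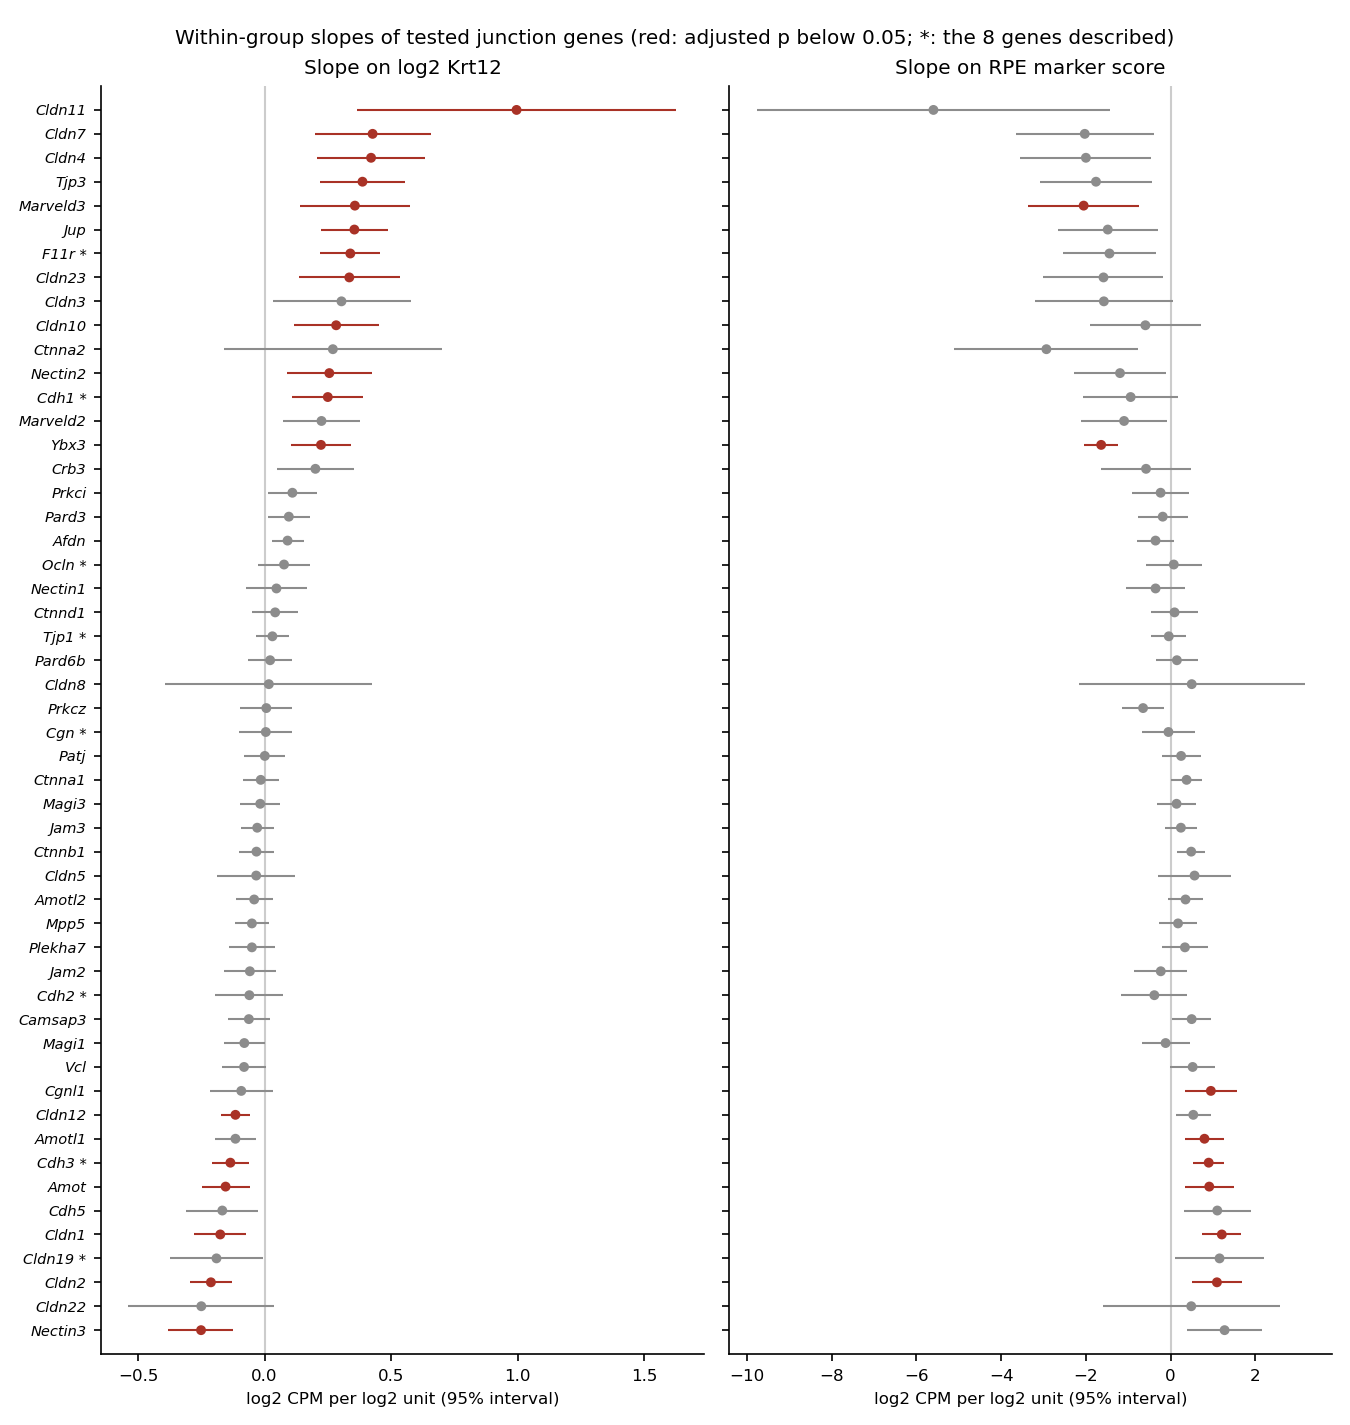
Fitted slopes with 95% intervals of all but 1 of the 53 tested junction genes on log2 Krt12 (left) and on the RPE marker score (right), in log2 CPM per unit; red marks an adjusted p below 0.05, the asterisk the 8 genes. On the left F11r and Cdh1 lie right of 0 and Cdh3 left of it, and on the right Cdh3 lies at 0.90.

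The study's own comparisons were made over the groups. No member and none of the 53 junction genes passed an edgeR adjusted p of 0.05 in any of 7 contrasts. Among all genes, 0.00650% passed for hydroquinone in wild type, 0.0455% for hydroquinone in knockout and 0.0845% for hydroquinone averaged over genotype (13 genes). For the 3 knockout comparisons (untreated, under hydroquinone and averaged over treatment) and for the interaction, 0% passed. With so few calls anywhere, a count of 0 in 8 genes is near the background. With DESeq2 the count was also 0 of the 8 in all 7 contrasts. At an unadjusted p below 0.05, the knockout comparison under hydroquinone called 1 of the 8, Cldn19, where 4.18% of all genes were called. The other contrasts called 0 of the 8 at that level. The background there was 4.28% for hydroquinone in wild type, 2.96% for it in knockout, 5.72% for its average, 1.32% for untreated knockout, 2.96% for knockout averaged over treatment and 1.92% for the interaction.

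For hydroquinone averaged over genotype, the log2 differences were 0.13 for Cdh1 (95% interval -0.37 to 0.62), -0.28 for Cdh2 (-0.64 to 0.08), -0.10 for Cdh3 (-0.38 to 0.17) and 0.15 for Cgn (-0.12 to 0.42). They were -0.20 for Cldn19 (-0.73 to 0.32) and 0.23 for F11r (-0.32 to 0.79). F11r and Cdh1 changed sign, to -0.17 and -0.22, without wild-type hydroquinone libraries 1 and 2.

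For knockout averaged over treatment, Cldn19 differed by 0.41 on the log2 scale (95% interval -0.11 to 0.93) and Cdh2 by 0.34 (-0.02 to 0.70). F11r differed by -0.32 (-0.87 to 0.24), Cdh1 by -0.24 (-0.73 to 0.26) and Cdh3 by 0.16 (-0.11 to 0.43). Ocln (-0.05), Tjp1 (-0.04) and Cgn (-0.002) lay closest to 0. With Krt12 as a covariate, F11r and Cdh1 stood at 0.05 and 0.01, each with its sign changed. Cldn19, Cdh2 and Cdh3 kept their sign in all 10 alternatives, this covariate included. Over these they ranged from 0.216 to 0.523, from 0.133 to 0.435 and from 0.049 to 0.26.

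**Figure D5:**
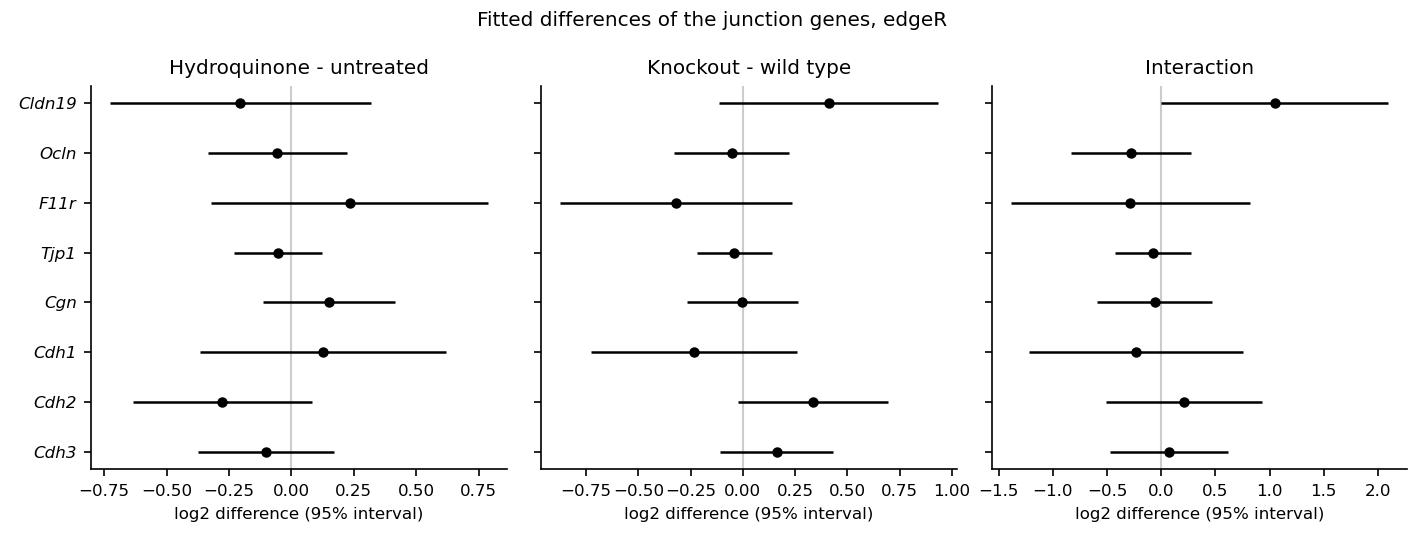
Fitted log2 differences with 95% intervals of the 8 genes for hydroquinone minus untreated (averaged over genotype), knockout minus wild type (averaged over treatment) and the interaction. All intervals include 0, and those of Tjp1 are the narrowest.

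From the wider lists, the genes with the smallest p in each contrast are named here although they did not pass. For hydroquinone averaged over genotype they were Jam3 (-0.31, SE 0.08, edgeR adjusted p = 0.63) and Jam2 (-0.42, SE 0.13, adjusted p = 0.76), junctional adhesion molecules related to F11r. In wild type alone they were the same, Jam2 at -0.55 and Jam3 at -0.32, and in knockout alone Jam3 at -0.30 and Cldn5. For knockout under hydroquinone they were Cldn10 (-1.16, SE 0.38, adjusted p = 1.00) and Cldn19, and for the interaction these again. Untreated knockout against wild type gave Cldn2 and Pard6b, and knockout averaged over treatment gave Cldn10 (-0.61) and Cldn2. Jam3 was 86.9 to 105.4 CPM in untreated wild type and 62.5 to 88.0 CPM with hydroquinone, so these groups overlapped. In knockout it was 93.15 to 111.2 CPM untreated and 70.57 to 92.06 CPM with hydroquinone, without overlap. Jam2 did not overlap in wild type (66 to 80.25 CPM untreated, 39.73 to 65.74 CPM with hydroquinone). In knockout Jam2 did overlap (59.94 to 100.1 CPM and 49.92 to 79.61 CPM). Jam2 and Jam3 were chosen here for their small p, a choice that favours groups lying apart. How many of all genes fail to overlap in this way was not counted, so the lack of overlap carries no weight of its own.

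Finally, the 3 genes whose log2 level was most like each member over the 16 libraries were listed from 10814 genes of at least 10 CPM. Those of F11r were Rab25 (r = 0.990), Nectin4 (0.987) and Cblc (0.986), and those of Cdh1 were Anxa1 (0.980), Pdlim1 (0.977) and Fgfbp1 (0.970). Cdh3 was most like Aco1 (0.967), Il17rd (0.941) and Slc4a5 (0.927), and Cldn19 like Fbln1 (0.966), Gpx3 (0.956) and Gem (0.954). Cdh2 was most like Ank3 (0.950), Adgrl3 (0.938) and Map3k12 (0.931), and Ocln like Aaed1 (0.912), Erlin1 (0.876) and Polr3g (0.874). The highest values for Tjp1 (Gfpt1 0.869, Dusp16 0.848, Gpd2 0.844) and Cgn (Cobl 0.839, Glyr1 0.826, Map3k1 0.819) were lower. All genes were read in the same libraries, so depth and tissue content are common to the points, and the values carry no test.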

How the data were processed

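RNA of the RPE was sequenced in 16 libraries. The table the authors deposited is named as FPKM; since its entries are 100% whole numbers and its totals differ, it was used as counts. STAR, Cufflinks, DESeq2 and mm10 are named per the submitters' processing notes, without roles or versions, and counting, strand and duplicate handling are not given in the sources used here. Symbols and coordinates are from GENCODE vM21 (GRCm38), which held 51633 of the 51912 identifiers. The members and gene lists were chosen with earlier results of these data known.

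CPM values use TMM-scaled library sizes. Tests were edgeR 4.0.16 quasi-likelihood F tests (R 4.3.3, TMM) on genes averaging 1 CPM or more (15380 genes, 99.8% of counts), with 4 group means in 1 model, or these and a slope, and Benjamini-Hochberg adjustment over all genes; the threshold was 0.05. The eyes of a mouse were separate libraries, so p-values measure the spread between libraries, of which some share a mouse; the consensus correlation within mice was -0.0202 (limma 3.58.1). Copies of a library were checked for: chi-square per degree of freedom within groups was at least 21.9. Counts are not unique molecules. Marker scores are means of log2(CPM + 1). The edgeR scripts were tested on simulated data. Alternatives were scaling, filter, DESeq2 1.42.0, identifier form, eyes summed, mouse as a random block, marker covariates and leaving out libraries. Named genes were the 8 members, list genes passing or with the 2 smallest p per contrast, the 4 largest passing slopes per direction, and the 3 most alike genes per member; 1 gene this rule gave is not reported here.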

Additional observations from a re-analysis of the deposited data

Results flagged for a closer look

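In the untreated knockout group, the lowest of the 4 Ocln values stood apart: 23.7 CPM in library 4 beside 33.1, 34.0 and 35.5 CPM in the others. On the log2(CPM + 1) scale its gap to the nearest value was 0.830 of the group's range, just past Dixon's 95% critical value for 4 samples. It was the sole case on that scale in 36 sets of 4 libraries searched, where chance alone would flag about 1.8. On the CPM scale the gap was 0.802 of the range, under the critical value. Knockout hydroquinone library 2 instead passed it on that scale as the highest of its group, for Tjp1 (0.847) and Cdh1 (0.875). Untreated knockout library 4 is also one of the 2 with the highest rod marker score, whose part in the Ocln value was not tested.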

How the results depend on the processing

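In the 7 group contrasts the number of members called was 0 in all 189 combinations of contrast and setting. Averaged over treatment, the knockout effect of Cgn, near 0, changed sign to 0.021 without a filter on low counts, 0.027 with eyes summed, 0.002 with Krt12 and 0.009 with the rod score as covariate, 0.051 without the 2 libraries of highest Krt12 and 0.006 without the 2 of highest rod score. With Krt12 as covariate Ocln, Cdh1 and F11r changed sign to 0.013, 0.010 and 0.051, and without the 2 libraries of highest Krt12 to 0.037, 0.112 and 0.083; Ocln was 0.043 without the 2 of highest rod score. The hydroquinone effects of Cdh1, Cdh3 and F11r changed sign to -0.220, 0.010 and -0.169 without the 2 libraries of highest Krt12. Leaving out 1 library at a time, the knockout effect ranged from -0.059 to 0.063 for Cgn, -0.153 to 0.004 for Ocln and -0.099 to 0.013 for Tjp1, and the hydroquinone effect of Cdh1 from -0.071 to 0.227.

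On the Krt12 slope 18 junction genes and 3 members passed. These were 11 and 2 with eyes summed, and 0 and 0 both with Krt12, RPE and rod levels together and without the 2 libraries of highest Krt12; without 1 library they were 2 to 24 and 1 to 3. Without wild-type hydroquinone library 2 they were 5 and 1, and without its library 3 they were 2 and 1. Over all genes this slope called 2191 in the main fit and 1601 with eyes summed. It called 867 without wild-type hydroquinone library 2 and 235 without library 3. The slope of Cgn changed sign to -0.006 with eyes summed and -0.031 without the 2 libraries of highest Krt12, and ranged from -0.017 to 0.037 without 1 library. On the RPE score 9 junction genes and 1 member passed. They were 19 and 2 with DESeq2, 4 and 1 with eyes summed, 0 and 0 with the 3 levels together, 5 and 1 without the 2 libraries of highest Krt12, 17 and 3 without the 2 of highest rod score, and 3 to 14 and 1 to 2 without 1 library. The lowest, 3, was without knockout hydroquinone library 3 and the highest, 14, without its library 1. Over all genes the RPE slope called 1990 in the main fit, 2569 with DESeq2 and 1374 with eyes summed. It called 1758 without the 2 libraries of highest rod score, and 1061 and 1090 without knockout hydroquinone library 3 and library 1. Tjp1 changed sign to 0.017 with the identifier form, Cgn to 0.057 and Cdh2 to 0.089 with the 3 levels together, Cgn to 0.026 without the 2 libraries of highest Krt12, and Ocln to -0.440 and Cdh2 to 0.380 without the 2 of highest rod score. Without 1 library the RPE slope ranged from -0.212 to 0.051 for Tjp1, -0.164 to 0.224 for Ocln and -0.368 to 0.049 for Cgn. The cause of these changes was not tested.

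Among all genes, hydroquinone called 1 in wild type (0 to 20 over alternatives), 7 in knockout (3 to 14) and 13 averaged over genotype (6 to 39), with the upper values from DESeq2. The Krt12 slope called 2191 (16 with the 3 levels together, 61 without the 2 libraries of highest Krt12, 1452 without a filter, 235 without wild-type hydroquinone library 3) and the RPE slope 1990 (0, 1140, 1623 and, without knockout hydroquinone library 3, 1061). No paired analysis was possible because replicate numbers follow accession order and pair no samples across groups. At these depths every member had at least 306 counts in every library, so the spread between libraries and not counting limits these comparisons.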
